A study of Mus musculus with 12 samples.

Results

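Interscapular brown fat (BAT) was compared with retroperitoneal white fat (RWAT), 3 libraries of each, chosen by their titles and making up 6 of the 12 libraries of the series. The other 6 libraries, 3 of epididymal (EWAT) and 3 of inguinal (IWAT) white fat, entered the fit to estimate the spread between libraries and are not described. All 12 came from male wild-type C57BL/6J mice, aged 6 to 10 weeks in the series text, on a high-fat rodent diet. Every depot was labelled as surgically denervated, so both sides of the comparison were denervated fat and the effect of cutting the nerves was not tested. The libraries were made from total RNA without its ribosomal part and read from one end over 75 bases. The labels did not say that the 3 libraries of a depot came from separate mice, so the p-values reflect no more than the spread among these libraries.

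Brown fat burns fatty acids to make heat through the mitochondrial uncoupling protein Ucp1, under the control of sympathetic nerves that release noradrenaline. White fat stores triglyceride and releases it, together with hormones such as leptin. Interscapular brown fat lies between the shoulder blades and shares embryonic precursors with dorsal muscle and skin, while retroperitoneal fat lies behind the kidney, against the body wall and the lining of the abdominal cavity. Homeobox (Hox) genes, which mark position along the body axis during development, stay active in adult adipose tissue in patterns that differ with the position of the depot.

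Total expected counts were 18285352 to 19910001 in BAT and 12933516 to 20798169 in RWAT, with RWAT 3 the shallowest. Levels are given as CPM, the count of a gene per 1000000 counts of its library after TMM scaling, and a log2 fold change is BAT over RWAT ± SE. The labels were checked against defining genes. Ucp1 stood at 1489, 0.253 and 1.70 CPM in BAT 1 to 3, against 0.338, 1.50 and 0.455 CPM in RWAT 1 to 3. Only BAT 1 stood far above RWAT, while BAT 2 was the lowest of the 6 libraries and BAT 3 lay just above RWAT 2. BAT 2 and BAT 3 nevertheless held Zic1 and Lhx8, a pair of developmental markers of interscapular brown fat, at levels above every RWAT library (values below). In RWAT, Wt1, a transcription factor of visceral fat and its mesothelial lining, stood at 0, 8.05 and 7.20 CPM in RWAT 1 to 3, so RWAT 1 lacked it. The 42 genes of 2 skeletal muscle lists took 0.0529%, 0.0276% and 0.0105% of the counts in BAT 1 to 3, against 0.143%, 0.0253% and 0.838% in RWAT 1 to 3. Ucp1 thus went against the BAT label in 2 libraries and Wt1 against the RWAT label in 1 library, and whether these 3 labels are correct was not tested. The labels were kept, and BAT and RWAT stand for the libraries so labelled throughout. For some of the results that rest on 1 of these libraries, the value without it is also given. No fit left out BAT 2 and BAT 3 together.

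Zic1 rose in BAT, and the posterior Hox genes Hoxa9, Hoxa10 and Hoxc10 fell, and these were the 4 genes that passed the test. By the edgeR quasi-likelihood test with Benjamini-Hochberg (BH) adjustment, 4 of 18942 genes had an adjusted p below 0.05, which is 0.0211% of those tested, 1 higher (0.00528%) and 3 lower (0.0158%) in BAT. At an unadjusted p below 0.05 there were 894 genes (4.72%), 517 higher (2.73%) and 377 lower (1.99%). The values of 1611 genes (8.5%) did not overlap between the depots, with 786 (4.15%) higher and 825 (4.36%) lower in BAT. These shares over all genes are the background for the counts of list members in the full fit below. Other edgeR fits have their own background at an unadjusted p below 0.05, given here in either direction. It was 579 of 19490 genes without BAT 1 and 1548 of 19577 without BAT 2. Without RWAT 2 it was 672 of 19519, without RWAT 3 738 of 19396, and with replicate numbers blocked 728 of 18942. DESeq2 called 45 genes (0.238%), 21 higher (0.111%) and 24 lower (0.127%), and its calls included those 4 genes. limma-voom called 0 (0%), with 553 at an unadjusted p below 0.05. The median log2 fold change of all genes tested was 0.019.

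Zic1 (chromosome 9, 91358058 to 91365810, GRCm38) is a zinc finger transcription factor of dorsal somites and of brown fat precursors. It stood at 7.35, 16.02 and 14.2 CPM in BAT 1 to 3, against 0.628, 0.182 and 0.910 CPM in RWAT 1 to 3, with 714 counts in BAT and 29 in RWAT. Every BAT library lay above every RWAT library, with BAT 1 the lowest of the brown ones. The means were 12.5 ± 4.58 CPM in BAT and 0.573 ± 0.367 CPM in RWAT (SD, n = 3 each), a log2 fold change of 4.51 ± 0.57 (edgeR adjusted p = 0.0209). In the fit with a replicate block its value was 4.46 and the call ended (edgeR adjusted p = 0.149). It was 4.30 without BAT 2, 4.41 without BAT 3 and 4.63 without RWAT 1 (edgeR adjusted p = 0.0325, 0.0501 and 0.0890). Without RWAT 3 it was 4.94 (edgeR adjusted p = 0.0565), and without EWAT 1, EWAT 3 or IWAT 2, which are libraries of neither depot, 4.51, 4.50 and 4.50 (edgeR adjusted p = 0.0563, 0.0541 and 0.0644). Over 25 alternatives its adjusted p ranged from 3.50e-09 to 0.546.

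Hoxa9 (chromosome 6, 52223100 to 52231089) and Hoxa10 (chromosome 6, 52231197 to 52240854) are neighbouring genes of the HoxA cluster that specify posterior segments, and Hoxc10 (chromosome 15, 102966796 to 102971893) is their counterpart in the HoxC cluster. Hoxa9 had 0.160, 0.0507 and 0.110 CPM in BAT 1 to 3, against 4.64, 3.55 and 4.62 CPM in RWAT 1 to 3, and fell, with -5.25 ± 0.67 as its log2 fold change (edgeR adjusted p = 0.0209). Its BAT values stayed at the level of a few counts, and all 3 RWAT libraries held the gene at similar levels. Hoxa10 had 0.0533, 0 and 0 CPM in BAT, against 7.44, 3.55 and 4.02 CPM in RWAT (edgeR adjusted p = 0.0209). That is 1 count in BAT and 285 in RWAT, so RWAT stood 289-fold above BAT after scaling, and the 95% exact counting interval was 51.5 to 11474. Hoxc10 was absent from the counts of all 3 BAT libraries, with 0 counts, and stood at 6.33, 3.001 and 3.41 CPM in RWAT, 242 counts in all. With 3 counts over the group as the floor, BAT was at least 81.9-fold lower (edgeR adjusted p = 0.0209). RWAT 1 was the highest library for Hoxa10 and Hoxc10, and no BAT library overlapped the RWAT range for any of the 3 genes. Intervals and floors cover counting error only. Hoxc10 lies within the annotated span of Hoxc5 on the same strand, which had 370 counts in BAT and 237 in RWAT, and Zic1 overlaps Zic4 on the opposite strand. The strand setting of the counting was not given in the sources used here, so reads in the Zic1 and Zic4 overlap cannot be told apart.

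The fold changes of the 3 Hox genes kept their direction in every alternative, while the calls depended on the setting. Hoxa9 was not called without BAT 1, BAT 2 or BAT 3 (edgeR adjusted p = 0.212, 0.0541 and 0.236) or without RWAT 1 or RWAT 3 (edgeR adjusted p = 0.0515 and 0.0565). Hoxa10 and Hoxc10 were not called without BAT 1 (edgeR adjusted p = 0.339 and 0.180), BAT 3 (edgeR adjusted p = 0.147 and 0.101) or RWAT 3 (edgeR adjusted p = 0.0565 for each). Without BAT 1, Zic1 was the 1 gene called of 19490 (0.00513%), higher in BAT. Leaving out EWAT 1, EWAT 2, EWAT 3 or IWAT 2 put all 3 between 0.0541 and 0.0839. Over 25 alternatives the adjusted p ranged from 1.96e-07 to 1.00 for Hoxa9, 4.52e-06 to 0.956 for Hoxa10 and 9.09e-08 to 0.546 for Hoxc10. All 4 genes, Zic1 included, were called with the RLE and upper-quartile factors, TMM without muscle and mitochondrially encoded genes, no filter, a filter of 1 CPM, a test against a log2 fold change of 1, and DESeq2. None of them was called by limma-voom, with the muscle covariate or without RWAT 1 and RWAT 3 together, and with the 6 BAT and RWAT libraries alone Hoxa9 and Hoxa10 were.

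**Figure D1:**
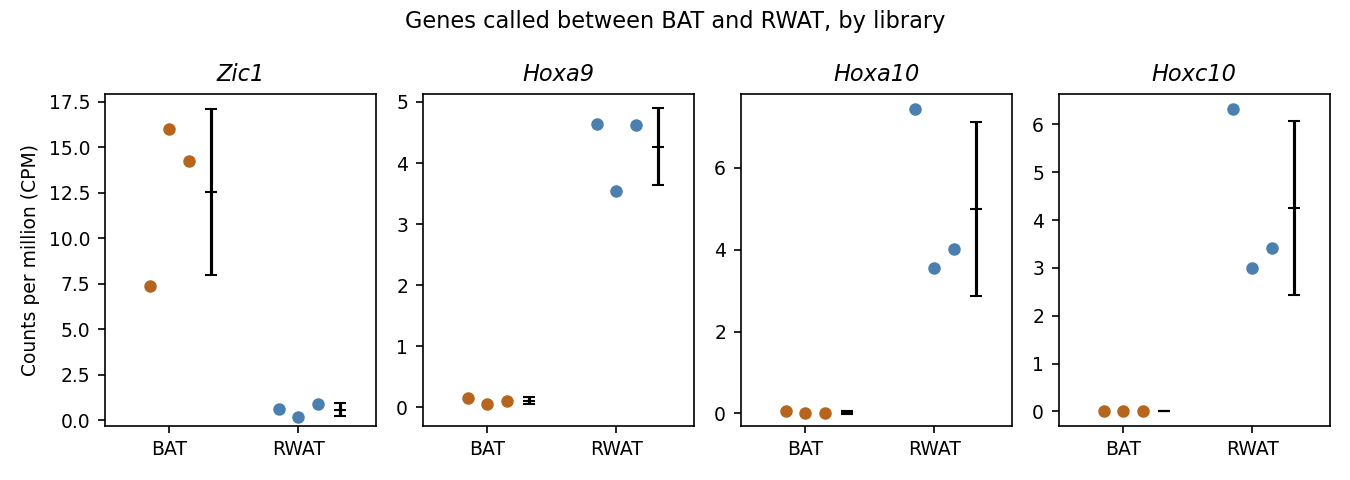
CPM of the 4 called genes in each library (points, linear axes that differ between panels), with BAT left of RWAT and the mean ± SD of 3 libraries beside the points. Zic1 lies between 7.35 and 16.02 CPM in BAT and at or below 0.910 CPM in RWAT, while Hoxa9, Hoxa10 and Hoxc10 lie at or below 0.160 CPM in BAT and at or above 3.00 CPM in RWAT.

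The 250 bases before the annotated starts of the called genes are shown because these genes differ between the depots in opposite directions, with CG pairs in capitals; methylation was not measured. The sequences are from RefSeq (GRCm38.p6), read 5′ to 3′ on the strand of the gene, and Hoxc10 is named only.
Zic1, chr9:91365769-91366018, strand -: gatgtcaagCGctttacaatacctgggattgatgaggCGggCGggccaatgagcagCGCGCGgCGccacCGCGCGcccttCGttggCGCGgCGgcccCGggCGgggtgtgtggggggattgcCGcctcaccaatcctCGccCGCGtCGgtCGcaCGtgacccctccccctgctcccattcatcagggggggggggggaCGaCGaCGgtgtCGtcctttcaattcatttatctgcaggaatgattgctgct
Hoxa10, chr6:52234940-52235189, strand -: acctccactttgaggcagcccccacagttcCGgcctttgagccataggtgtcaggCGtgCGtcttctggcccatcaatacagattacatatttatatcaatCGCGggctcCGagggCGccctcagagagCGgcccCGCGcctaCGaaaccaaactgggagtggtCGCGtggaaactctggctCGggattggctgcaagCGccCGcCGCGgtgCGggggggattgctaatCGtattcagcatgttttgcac
Hoxa9, chr6:52227371-52227620, strand -: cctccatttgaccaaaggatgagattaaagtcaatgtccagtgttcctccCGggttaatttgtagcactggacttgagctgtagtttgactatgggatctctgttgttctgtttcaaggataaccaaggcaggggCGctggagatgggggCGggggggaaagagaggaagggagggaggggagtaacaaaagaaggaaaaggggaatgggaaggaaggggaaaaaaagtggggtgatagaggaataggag
The letters CG, which read the same on both strands, occur 27 times before Zic1, 20 times before this start of Hoxa10 and 3 times before Hoxa9. A second Hoxa10 start had 7. Among 32851 promoters of the same length 92.1% hold at least 1, with a median of 6, and 91.4% have fewer than Zic1. The called genes thus included both CG-rich and CG-poor windows, which is a description of these letters only.

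Along the Hox clusters, the called genes were of the posterior groups. Of 16 genes of groups 9 to 13, 6 passed the filter on low counts, 3 fell, and 4 were lower in BAT without overlap. The median log2 fold change of the 6 was -3.41, with leave-one-out medians from -3.72 to -3.26. The 3 called genes are among these 6, and Hoxa10 and Hoxc10 passed the filter through libraries other than BAT. The median thus restates the calls and gives no support beyond them. The fourth was Hoxc9, with 0.213, 2.38 and 1.04 CPM in BAT 1 to 3, against 3.48, 2.68 and 4.78 CPM in RWAT 1 to 3. Its BAT values were uneven, and BAT 2 came close to the lowest RWAT library. Its log2 fold change was -1.57 ± 0.61 (edgeR adjusted p = 0.983). Hoxb13, Hoxc12, Hoxc13 and Hoxd11 had 0 counts in all 6 libraries. Summed over the list, the level was 1.65, 4.26 and 2.19 CPM in BAT 1 to 3, against 24.5, 14.2 and 17.9 CPM in RWAT 1 to 3.

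The anterior Hox genes, groups 1 to 4, which mark the head end of the body axis, mostly had positive log2 fold changes. Of 9 tested among 12, 7 had positive log2 fold changes, with a median of 0.74, and 3 were higher in BAT without overlap. None passed the adjusted threshold in edgeR, DESeq2 or limma-voom, while 3 were at an unadjusted edgeR p below 0.05. Hoxb4 stood at 5.11, 5.83 and 5.64 CPM in BAT 1 to 3, against 2.51, 3.27 and 4.17 CPM in RWAT 1 to 3. The BAT libraries were nearly level and all above RWAT (log2 fold change 0.74 ± 0.26, edgeR adjusted p = 0.950). Hoxb3 showed 3.04, 4.16 and 3.23 CPM in BAT, against 1.305, 2.0004 and 1.59 CPM in RWAT, and Hoxa4 1.44, 0.963 and 0.986 CPM in BAT, against 0.483, 0.636 and 0.606 CPM in RWAT, again without overlap (edgeR adjusted p = 0.999 and 0.996). The 11 central genes, groups 5 to 8, were mixed, with a median of 0.16 and 8 positive values. Among them Hoxb8 had 0.693, 0.760 and 0.602 CPM in BAT, against 0.145, 0.364 and 0.455 CPM in RWAT, and Hoxa6 0.160, 0.558 and 0.274 CPM in BAT, against 0.628, 0.591 and 0.985 CPM in RWAT. The depots did not overlap for either gene, and the directions were opposite (edgeR adjusted p = 0.999 for each).

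Other factors that pattern adipose depots did not pass the test. Of 34 listed, 23 were tested, with a median log2 fold change of 0.27. Lhx8, a LIM homeobox factor of brown fat, stood at 9.06, 7.96 and 10.6 CPM in BAT 1 to 3, against 2.46, 0.227 and 0 CPM in RWAT 1 to 3. The BAT libraries were close together, and RWAT 1 held more of it than RWAT 2 and RWAT 3 (log2 fold change 3.28 ± 0.89, edgeR adjusted p = 0.802). Zic4, the partner of Zic1 on the opposite strand, showed 1.01, 1.67 and 3.40 CPM in BAT, against 0.0967, 0.0455 and 0.303 CPM in RWAT, 114 and 7 counts (log2 fold change 3.90 ± 0.77, edgeR adjusted p = 0.802). Tbx15, a T-box factor of brown and subcutaneous fat, had 16.4, 23.1 and 19.7 CPM in BAT, against 19.7, 4.82 and 10.8 CPM in RWAT. RWAT 1 reached the BAT range, so the depots overlapped (log2 fold change 0.74 ± 0.39, edgeR adjusted p = 0.999).

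Visceral patterning factors split the RWAT libraries. Wt1 stood at 0.320, 0.0507 and 0.493 CPM in BAT 1 to 3, against 0, 8.05 and 7.20 CPM in RWAT 1 to 3. It was high in RWAT 2 and RWAT 3 and at 0 in RWAT 1, below the BAT values. The log2 fold change was -4.12 ± 1.09 over all libraries and -4.71 without RWAT 1 (edgeR adjusted p = 0.802 and 0.0136), and over its 23 alternatives the adjusted p ranged from 0.0136 to 1. Pax3, a factor of the dermomyotome that failed the filter on low counts and was chosen after its values were seen, was likewise lowest in RWAT 1 among the RWAT libraries, with 0.0533, 0 and 0 CPM in BAT, against 0.145, 2.18 and 3.11 CPM in RWAT. Without RWAT 1 edgeR called 5 of 19541 genes (0.0256%), all lower in BAT, and Pax3 was among them (edgeR adjusted p = 0.00547, with 0.00547 to 0.797 over 12 alternatives). In that fit Pax3 passed the filter through RWAT 2 and RWAT 3, where it was high. RWAT 1 was the lowest RWAT library for both Wt1 and Pax3. Their adjusted p-values without it follow the choice of library and give no support of their own. Tcf21, a factor of visceral stroma, had 0 counts in BAT and 0.0483, 0.409 and 1.21 CPM in RWAT, 26 counts in all, at least 8.80-fold lower in BAT (edgeR adjusted p = 0.950). Tbx5, a T-box factor of the forelimb region, had 1.76, 0.456 and 1.26 CPM in BAT, against 0.725, 0 and 0.152 CPM in RWAT (edgeR adjusted p = 0.999).

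Skeletal muscle transcripts were present in both depots, and those of fast and shared fibre genes were highest in RWAT 3 and RWAT 1. Fast-fibre genes, which encode the contractile proteins of rapidly contracting fibres, summed to 165, 15.6 and 30.8 CPM in BAT 1 to 3, against 587, 14.4 and 3008 CPM in RWAT 1 to 3. BAT 1 was the richest brown library, while RWAT 2 held no more than the poorest of BAT, so the depots overlapped. Genes shared by both fibre types summed to 396, 239.8 and 82.2 CPM in BAT 1 to 3, against 847, 208 and 5209.5 CPM in RWAT 1 to 3, with the same 3 libraries on top. The sums of the slow-fibre list did not follow this order. They were 352, 456 and 295 CPM in BAT 1 to 3, against 470.2, 435 and 234 CPM in RWAT 1 to 3. RWAT 3 was the lowest of the 6. Few members carry these sums, since 6 of 10 failed the filter on low counts. The 4 tested had a mean log2 CPM of 2.40, 1.79 and 1.73 in BAT, against 2.64, 2.27 and 2.00 in RWAT. The sums are thus no measure of slow-fibre transcripts at large. In bulk tissue, fewer cells of a type and less RNA per cell cannot be told apart. No muscle gene passed the adjusted threshold in edgeR or limma-voom. DESeq2 called 4, which were Actn3, Casq1, Myoz1 and Ryr1, all lower in BAT. At an unadjusted edgeR p below 0.05, 11 of 14 fast-fibre genes and 21 of 24 tested shared genes (of 28 listed) were lower in BAT, and with replicate numbers blocked these counts were 10 and 12. Without RWAT 3 they were 4 (with 1 higher) and 2, and with limma-voom 1 and 3. With the muscle covariate they were 3 (with 2 higher) and 0 (with 2 higher). That covariate is the mean level of the muscle list genes themselves, so it lowers these counts by construction and tests nothing about them.

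The fast myosin Myh4, a motor protein of the fastest limb fibres, stood at 20.99, 0.0507 and 1.48 CPM in BAT 1 to 3, against 198, 0.318 and 889 CPM in RWAT 1 to 3. RWAT 3 and RWAT 1 were far above the rest, and RWAT 2 lay between BAT 2 and BAT 3. The log2 fold change was -5.59 ± 2.03 over all libraries and 4.53 without RWAT 1 and RWAT 3 (edgeR adjusted p = 0.950 and 1.00; 0.444 to 1 over 25 alternatives). Actn3, an actin crosslinker of fast fibres, had 2.56, 0.355 and 0.383 CPM in BAT, against 40.5, 1.27 and 198 CPM in RWAT, a log2 fold change of -6.18 ± 1.35, or -0.21 without RWAT 1 and RWAT 3 (edgeR adjusted p = 0.802 and 1.00). Myoz1, a fast-fibre protein of the Z-disc, did not overlap, with 0.906, 0.811 and 0.383 CPM in BAT, against 8.07, 1.14 and 48.5 CPM in RWAT (log2 fold change -4.75 ± 1.06, edgeR adjusted p = 0.802). Its log2 fold change was -2.70 without RWAT 3 and -0.69 without RWAT 1 and RWAT 3. Without RWAT 2, edgeR called 13 of 19519 genes (0.0666%), 1 higher (0.00512%) and 12 lower (0.0615%) in BAT. Of them, 4 were muscle genes: Actn3, Myoz1, the calcium channel gene Cacna1s and Ampd1, a muscle AMP deaminase (edgeR adjusted p = 0.0279, 0.0323, 0.0375 and 0.0279). Ampd1 was chosen after its values were seen and failed the filter on low counts in the full fit. RWAT 2 held the fewest fast-fibre transcripts of the RWAT libraries, so these calls follow the choice of library and give no support of their own.

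Of the genes shared by both fibre types, Acta1, Ckm, Ryr1 and Cacna1s had RWAT 3, RWAT 1 and BAT 1 on top, in that order. Not every member followed it. For Myom1 the lowest library was BAT 1, and for Des the second highest was RWAT 2 (values below). Acta1, the actin of skeletal muscle fibres, had 33.99, 13.5 and 6.57 CPM in BAT 1 to 3, against 89.99, 5.73 and 507 CPM in RWAT 1 to 3. Ckm, the muscle creatine kinase that buffers ATP, had 12.3, 0.760 and 0.329 CPM in BAT, against 60.4, 0.182 and 338 CPM in RWAT. In both genes RWAT 2 lay below every BAT library, at the opposite end from RWAT 3. The log2 fold changes were -3.48 ± 1.31 and -4.90 ± 1.49 (edgeR adjusted p = 0.969 and 0.802), and without RWAT 1 and RWAT 3 they were 1.65 and 4.56, in the other direction. Ryr1, the calcium release channel of fibres, had 8.68, 2.48 and 2.63 CPM in BAT, against 27.2, 3.55 and 168 CPM in RWAT (edgeR adjusted p = 0.802), and Cacna1s 1.07, 0.203 and 0.219 CPM in BAT, against 6.19, 0.455 and 44.9 CPM in RWAT (edgeR adjusted p = 0.802). Their log2 fold changes were -3.84 ± 1.04 and -5.09 ± 1.20, against -1.74 and -2.73 without RWAT 3. The median of the fast-fibre list was -4.42. It was -6.97 without BAT 1, -2.48 without RWAT 3 and 2.29 without RWAT 1 and RWAT 3. For the shared list the median was -2.91, against -1.09 without RWAT 3 and 0.65 without both.

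The mix of myosins differed between the libraries with enough muscle reads to measure it. In the deposited TPM, which is scaled by transcript length, Myh4 made up 30.2% of the adult myosins Myh4, Myh1, Myh2 and Myh7 in BAT 1, against 93.5% in RWAT 1 and 78.3% in RWAT 3. Myh1 made up 39.1%, Myh2 25.2% and Myh7 5.49% in BAT 1, against 5.92%, 0.616% and 0% in RWAT 1 and 19.2%, 2.50% and 0.0112% in RWAT 3. With 1 BAT library the shares were not tested, and RSEM divides reads among these similar genes by estimate. Myh7, the slow myosin, had 3.94, 1.57 and 0.0548 CPM in BAT, against 0, 0.136 and 0.0758 CPM in RWAT, 106 and 4 counts, and it failed the filter on low counts in the full fit. It was called higher in BAT without BAT 3 (edgeR adjusted p = 0.0498, with 0.0498 to 1 over 12 alternatives). In that fit Myh7 passed the filter through BAT 1 and BAT 2, where it was high, and its lowest BAT library was left out. The call follows that choice and gives no support of its own. Myh1 had 27.2, 1.06 and 1.86 CPM in BAT, against 12.2, 1.23 and 163 CPM in RWAT, and Myh2 17.4, 3.29 and 0.767 CPM in BAT, against 1.305, 0.591 and 28.5 CPM in RWAT, with overlap in both and log2 fold changes of -2.55 ± 1.39 and -0.48 ± 1.28 (edgeR adjusted p = 0.999 and 0.999). The slow-fibre list, with 4 of 10 genes tested, had a median of -0.35 and 0 passed in edgeR, DESeq2 or limma-voom or reached an unadjusted edgeR p below 0.05. Myh1 overlaps an antisense gene with 5 counts in BAT and 76 in RWAT. Of 7 tested genes of muscle stem cells and denervated muscle, out of 18 listed, 0 passed in edgeR, DESeq2 or limma-voom, while 4 were lower at an unadjusted edgeR p below 0.05. They included Fbxo32, a ubiquitin ligase of muscle wasting, with 11.03, 11.1 and 19.3 CPM in BAT, against 28.5, 18.1 and 29.03 CPM in RWAT, and the fetal myosin Myh8, with 1.07, 1.42 and 1.70 CPM in BAT, against 6.04, 2.82 and 1.59 CPM in RWAT (edgeR adjusted p = 0.941 and 0.998). Chrna1, a subunit of the acetylcholine receptor of the fibre, had 0.906, 1.72 and 0.493 CPM in BAT, against 2.46, 1.41 and 2.80 CPM in RWAT (edgeR adjusted p = 0.999). How muscle transcripts came into each depot was not tested.

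**Figure D2:**
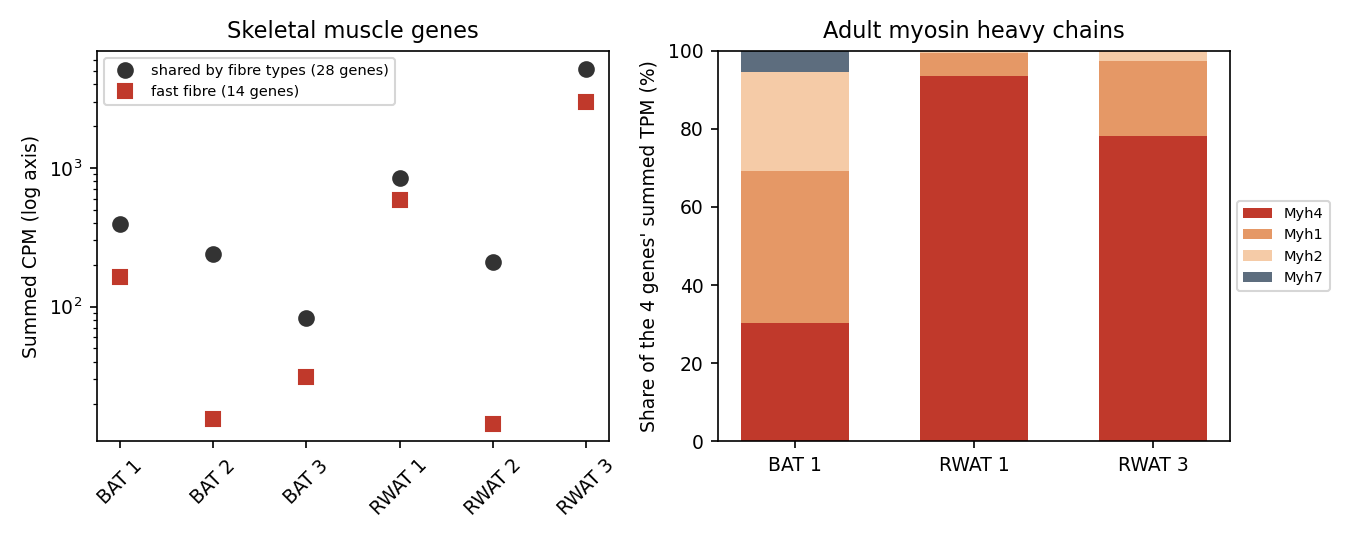
Left, summed CPM (log axis) of genes shared by muscle fibre types and of fast-fibre genes in each library, with BAT left of RWAT. Right, share of each adult myosin heavy chain in the 4 genes' summed deposited TPM, in the 3 libraries with the most myosin reads. RWAT 3 and RWAT 1 are highest, with 3008 and 587 CPM of fast-fibre genes, and RWAT 2 lies with BAT 2 and BAT 3.

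Promoters of a fast-fibre gene and of a shared fibre gene are shown because both genes were highest in RWAT 3, RWAT 1 and BAT 1, with the E-box letters CANNTG in capitals, from RefSeq (GRCm38.p6), 5′ to 3′ on the strand of the gene.
Myh4, chr11:67237562-67237811, strand +: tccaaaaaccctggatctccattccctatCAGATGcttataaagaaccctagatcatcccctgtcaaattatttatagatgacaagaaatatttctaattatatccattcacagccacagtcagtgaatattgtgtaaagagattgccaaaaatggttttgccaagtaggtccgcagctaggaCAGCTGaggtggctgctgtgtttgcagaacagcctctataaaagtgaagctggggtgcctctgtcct
Acta1, chr8:123894776-123895025, strand -: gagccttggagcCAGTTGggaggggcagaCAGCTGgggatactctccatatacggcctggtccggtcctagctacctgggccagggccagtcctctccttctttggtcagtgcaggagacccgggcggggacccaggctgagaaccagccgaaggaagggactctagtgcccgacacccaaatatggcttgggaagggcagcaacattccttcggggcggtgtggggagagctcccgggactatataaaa
Each window holds 2 E-boxes, the letters bound by muscle basic helix-loop-helix factors, searched on both strands. Of all 32851 promoters 66.2% hold at least 1, and so do 8 of the 10 fast-fibre genes with a promoter in the table. Each also holds 1 CArG box, the element of serum response factor, against 1.47% of all promoters, 1 of the 10 fast-fibre genes and 3 of the 18 shared fibre genes with a promoter. TATAAA occurs 3 times before Myh4, 1 time before Acta1 and in 12.4% of all promoters. A match is a description of letters, not of binding.

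Thermogenic genes were high in BAT 1 alone. Of 24 listed genes, the 23 found in the data summed to 3376, 239 and 296 CPM in BAT 1 to 3. The sums were 247, 226 and 421 CPM in RWAT 1 to 3, so BAT 2 and BAT 3 lay within the RWAT range. All 20 tested had positive log2 fold changes, with a median of 1.92, but none was free of overlap. Of these, 0 passed in edgeR, DESeq2 or limma-voom. At an unadjusted edgeR p below 0.05, 6 were higher in BAT (1 with replicate numbers blocked and 14 without BAT 2). Without BAT 1, 0 were higher and 1 was lower at that threshold. Without BAT 1 the median was -0.12. Ucp1 had a log2 fold change of 9.29 ± 2.70, and 0.29 without BAT 1 (edgeR adjusted p = 0.802 and 1.00; 0.155 to 1 over 25 alternatives). Cidea, which enlarges lipid droplets in brown adipocytes, had 309, 0.558 and 2.30 CPM in BAT, against 1.84, 0.136 and 0.606 CPM in RWAT. BAT 3 slightly exceeded every RWAT library, and BAT 2 did not (log2 fold change 6.89 ± 2.06, edgeR adjusted p = 0.836), and without BAT 1 the log2 fold change was 0.70. Ppara, a nuclear receptor that turns on fat-burning genes, had 48.2, 0.811 and 4.93 CPM in BAT, against 2.13, 0.818 and 2.43 CPM in RWAT, and Cpt1b, which admits fatty acids to the mitochondria of muscle and brown fat, 219, 0.963 and 2.46 CPM in BAT, against 1.79, 3.14 and 6.29 CPM in RWAT. For Cpt1b, both BAT 2 and BAT 3 were below RWAT 3 (log2 fold changes 3.34 ± 1.16 and 4.32 ± 1.54, edgeR adjusted p = 0.950 and 0.950). Without BAT 1 the log2 fold changes of Ppara and Cpt1b were 0.69 and -1.11.

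The identity genes of brown fat included the called gene Zic1. Of 12 brown fat identity genes tested, Zic1 rose, 3 had an unadjusted p below 0.05 and Zic1 and Lhx8 did not overlap, with a median log2 fold change of 0.69, or 0.23 without BAT 1. Ebf3, a transcription factor of the Ebf family, had 21.9, 15.3 and 21.7 CPM in BAT, against 13.1, 9.002 and 16.4 CPM in RWAT (edgeR adjusted p = 0.999). Its lowest BAT library, BAT 2, was below RWAT 3. Hspb7, a small heat shock protein also made by muscle, was the exception to the direction, with 2.77, 7.30 and 2.36 CPM in BAT, against 5.27, 5.77 and 29.6 CPM in RWAT (edgeR adjusted p = 0.999). Its highest value was in RWAT 3, the library with the most muscle transcripts.

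**Figure D3:**
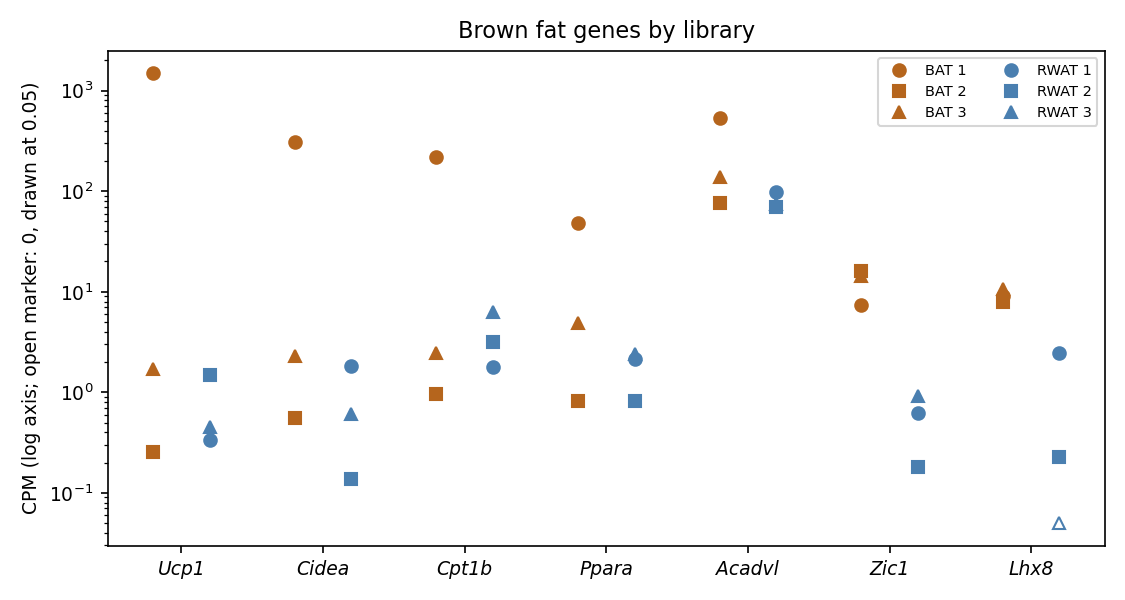
CPM (log axis) of thermogenic genes, a fatty acid oxidation gene and developmental brown fat genes in each library, with BAT left of RWAT and an open marker for 0. Ucp1 reaches 1489 CPM in BAT 1 only, while Zic1 and Lhx8 are above RWAT in all 3 BAT libraries.

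Genes of mitochondrial fuel use were also highest in BAT 1. The mean log2 CPM of 22 fatty acid oxidation genes was 7.72, 5.68 and 6.60 in BAT 1 to 3, against 6.21, 5.69 and 6.18 in RWAT 1 to 3. For 22 tricarboxylic acid cycle genes it was 7.9995, 6.21 and 6.75 in BAT and 6.59, 6.18 and 6.36 in RWAT. BAT 1 was highest and BAT 3 next in both, with BAT 2 at the low end of RWAT. None of the genes passed in edgeR, DESeq2 or limma-voom. At an unadjusted edgeR p below 0.05, 5 oxidation genes were higher (1 with replicate numbers blocked) and 4 cycle genes (3 with the block). Without BAT 1 these counts were 0 and 0, and without BAT 2 they were 16 and 17. Of all genes, 579 of 19490 and 1548 of 19577 reached that threshold in these fits, in either direction. The medians were 0.91 and 0.82, and 0.17 and 0.14 without BAT 1. Acadvl, which starts the oxidation of very long chains, had 532, 75.9 and 138 CPM in BAT, against 97.2, 68.9 and 74.9 CPM in RWAT (log2 fold change 1.63 ± 0.59, edgeR adjusted p = 0.950). Cpt2, which completes the entry of fatty acids into mitochondria, had 141, 37.7 and 78.3 CPM in BAT, against 47.9, 28.8 and 45.4 CPM in RWAT. Both genes were high in BAT 1, intermediate in BAT 3 and at the RWAT level in BAT 2. Sdha, which joins the cycle to the respiratory chain, had 564, 157 and 296 CPM in BAT, against 214, 152 and 169 CPM in RWAT (edgeR adjusted p = 0.999).

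Respiratory chain genes had smaller fold changes. Of 38 nuclear-encoded subunits tested, 0 passed in edgeR, DESeq2 or limma-voom and 0 reached an unadjusted edgeR p below 0.05, with a median log2 fold change of 0.52 and -0.066 without BAT 1. Uqcrc1, a core protein of complex III, had 356, 116 and 139.8 CPM in BAT, against 142, 108 and 96.03 CPM in RWAT, and Ndufv1, a subunit of complex I, 186, 49.5 and 86.8 CPM in BAT, against 76.6, 51.4 and 53.4 CPM in RWAT. BAT 1 was highest for both, and BAT 2 lay within or below the RWAT values. The 13 mitochondrially encoded protein genes took 3.51%, 0.993% and 1.58% of the counts in BAT 1 to 3, against 1.63%, 1.28% and 1.72% in RWAT 1 to 3, with BAT 2 the lowest of the 6. Their median was 0.37, or -0.27 without BAT 1, and mt-Atp6, a subunit of the ATP synthase, had a log2 fold change of 0.66 ± 0.46 (edgeR adjusted p = 0.999).

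Fatty acid synthesis genes summed to 11298, 5318 and 16737 CPM in BAT 1 to 3, against 7299, 3881 and 8809 CPM in RWAT 1 to 3, highest in BAT 3 and then BAT 1. All 18 tested had positive log2 fold changes with a median of 0.64, 0 passed in edgeR, DESeq2 or limma-voom, and 1 reached an unadjusted edgeR p below 0.05. That gene was Acacb, an acetyl-CoA carboxylase whose product restrains fatty acid entry into mitochondria, with 184, 20.9 and 87.1 CPM in BAT, against 22.5, 23.1 and 37.7 CPM in RWAT (log2 fold change 1.81 ± 0.67, edgeR adjusted p = 0.969). BAT 1 and BAT 3 exceeded every RWAT library, and BAT 2 was the lowest of the 6. Fasn, the fatty acid synthase, had 2923, 271 and 425 CPM in BAT, against 351, 139 and 165 CPM in RWAT, where BAT 2 and RWAT 1 overlapped (log2 fold change 2.47 ± 1.19, edgeR adjusted p = 0.999).

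Receptors and nerve genes gave no calls. Of 7 tested adrenergic receptors among 9, Adrb1, a beta receptor for noradrenaline, had an unadjusted edgeR p of 0.0214, and 0 passed in edgeR, DESeq2 or limma-voom. Adrb1 had 8.58, 2.33 and 5.42 CPM in BAT, against 2.08, 0.727 and 3.18 CPM in RWAT. Adrb3, the beta receptor of adipocytes, had 68.1, 7.86 and 226 CPM in BAT, against 41.6, 8.55 and 79.96 CPM in RWAT, with BAT 3 highest and BAT 2 lowest (edgeR adjusted p = 0.969 and 0.999). Adra1a, an alpha receptor, had 34.8, 4.06 and 14.6 CPM in BAT, against 10.1, 6.77 and 8.56 CPM in RWAT (edgeR adjusted p = 0.999). Th and Dbh, enzymes of noradrenaline synthesis, had 0 counts in all 6 libraries, and 8 of 16 sympathetic neuron genes were tested. A count of 0 allows up to 0.144 to 0.232 CPM of a library's unscaled total. Npy, a neuropeptide of sympathetic nerves, did not overlap, with 2.02, 4.31 and 1.26 CPM in BAT, against 8.07, 14.5 and 8.41 CPM in RWAT (log2 fold change -2.02 ± 0.93, edgeR adjusted p = 0.999). Slc6a2, the noradrenaline transporter, had 0.160, 0.101 and 0.274 CPM in BAT, against 0.338, 0.318 and 1.52 CPM in RWAT, 10 and 34 counts (edgeR adjusted p = 0.999). Schwann cell genes had a median of -0.0056 over 16 tested, 0 passed in edgeR, DESeq2 or limma-voom, and the 1 with an unadjusted edgeR p below 0.05 was S100b, a calcium-binding protein also made by adipocytes, with 41.2, 0.507 and 1.81 CPM in BAT, against 1.59, 0.727 and 1.89 CPM in RWAT. S100b was high in BAT 1 only (edgeR adjusted p = 0.950).

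Interferon-response genes had higher values in BAT 1 and BAT 3. Interferons are antiviral signals that switch on a shared set of genes. The mean log2 CPM of the 21 tested genes, of 22 listed, was 7.30, 4.81 and 6.24 in BAT 1 to 3, against 5.49, 4.72 and 4.37 in RWAT 1 to 3, with BAT 2 inside the RWAT range. All 21 had positive log2 fold changes, with a median of 1.52, and 17 had an unadjusted edgeR p below 0.05. That count was 4 without BAT 1, 8 without RWAT 3, 10 without RWAT 2 and 11 with limma-voom. edgeR and limma-voom called 0 and DESeq2 2, Ifi44 and Isg15. Ifi44, an interferon-induced antiviral gene, had 76.1, 9.43 and 21.2 CPM in BAT, against 6.23, 5.91 and 6.14 CPM in RWAT. RWAT was nearly level and every BAT library exceeded it (log2 fold change 2.54 ± 0.57, edgeR adjusted p = 0.802). Isg15, a ubiquitin-like modifier, had 94.1, 11.1 and 27.5 CPM in BAT, against 10.5, 6.14 and 8.49 CPM in RWAT, again without overlap but with BAT 2 close to RWAT 1 (log2 fold change 2.40 ± 0.59, edgeR adjusted p = 0.802). Bst2, which tethers budding virus to the cell, had 215, 61.4 and 90.04 CPM in BAT, against 58.1, 43.3 and 26.1 CPM in RWAT, with no overlap (log2 fold change 1.52 ± 0.42, edgeR adjusted p = 0.802). Without BAT 1 the median was 0.83. Without BAT 2, edgeR called 28 of 19577 genes (0.143%), 26 higher (0.133%) and 2 lower (0.0102%) in BAT, among them Ifi44 and Isg15 (edgeR adjusted p = 0.0375 and 0.0431). BAT 2 was the lowest BAT library for both genes, so these calls follow the choice of library.

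The promoter of Isg15 is shown with its matches to the core of the interferon-stimulated response element, GAAA, any 2 bases and GAAA again, in capitals; the matches overlap, and both strands were searched (RefSeq, GRCm38.p6, 5′ to 3′ on the strand of the gene).
Isg15, chr4:156200819-156201068, strand -: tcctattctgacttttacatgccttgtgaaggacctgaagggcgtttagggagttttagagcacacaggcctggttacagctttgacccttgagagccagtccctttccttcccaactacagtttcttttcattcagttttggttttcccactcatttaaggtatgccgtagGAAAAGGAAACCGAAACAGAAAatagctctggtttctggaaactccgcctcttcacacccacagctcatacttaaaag
It holds 3 matches. Of all 32851 promoters 2.98% hold at least 1, and 7 of the 14 interferon-response genes with a promoter in the table do.

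T and natural killer cell genes were also highest in BAT 1 and BAT 3. Their summed level was 283, 24.9 and 90.97 CPM in BAT 1 to 3, against 26.6, 27.1 and 22.1 CPM in RWAT 1 to 3. BAT 1 and BAT 3 were above RWAT, and BAT 2 was not. All 23 tested, of 24 listed, had positive log2 fold changes, with a median of 2.42 and 0.93 without BAT 1. At an unadjusted edgeR p below 0.05 there were 19, and edgeR called 0, limma-voom 0 and DESeq2 4, which were Ccl5, Gzma, Il2rb and Lck. The count of 19 became 5 without BAT 1 and 6 with limma-voom. Ccl5, a chemokine of activated T and natural killer cells, had 19.4, 1.12 and 17.3 CPM in BAT, against 1.84, 1.32 and 1.67 CPM in RWAT (log2 fold change 2.97 ± 0.78, edgeR adjusted p = 0.802). Il2rb, an interleukin receptor chain, had 51.4, 2.18 and 15.01 CPM in BAT, against 2.95, 3.23 and 1.52 CPM in RWAT, and Gzma, a protease of killer cells, 29.5, 1.98 and 7.94 CPM in BAT, against 1.69, 2.0004 and 0.834 CPM in RWAT. In each of these, BAT 2 was within or below RWAT. Lck, the kinase of the T cell receptor, had 18.005, 1.27 and 5.20 CPM in BAT, against 0.918, 0.636 and 1.52 CPM in RWAT (edgeR adjusted p = 0.802). Without BAT 2, Ccl5, Il2rb and the natural killer receptor Ncr1, chosen after its values were seen, were called (edgeR adjusted p = 0.0305, 0.0431 and 0.0431). BAT 2 was the BAT library at the RWAT level for this list, so these calls follow the choice of library and give no support of their own.

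Other immune lists gave no calls. The 15 tested B cell genes had a median of 0.096, with 0 passing in edgeR, DESeq2 or limma-voom and 2 higher at an unadjusted edgeR p below 0.05. One was Jchain, which joins secreted antibodies, with 0.906, 0.355 and 28.9 CPM in BAT, against 0.870, 0.864 and 0.682 CPM in RWAT. It was high in BAT 3 only, and its log2 fold change of 3.62 ± 1.27 was -0.37 without that library (edgeR adjusted p = 0.950 and 0.993; 0.122 to 1 over 25 alternatives). Ighm, the heavy chain of IgM, had 161, 16.7 and 347 CPM in BAT, against 72.5, 36.3 and 68.7 CPM in RWAT (edgeR adjusted p = 0.999). The 9 class II antigen presentation genes had a median of 0.63, and 0 reached an unadjusted edgeR p below 0.05 or passed in edgeR, DESeq2 or limma-voom. H2-Ab1, a class II chain, had 286, 67.1 and 282 CPM in BAT, against 205, 117 and 64.3 CPM in RWAT, low in BAT 2 and RWAT 3. Of 23 macrophage genes, 17 had negative values, with a median of -0.33, and 0 passed in edgeR, DESeq2 or limma-voom. The 1 with an unadjusted edgeR p below 0.05 was Mmp12, a macrophage elastase, with 136, 181 and 41.7 CPM in BAT, against 314, 358 and 794 CPM in RWAT and no overlap (log2 fold change -2.03 ± 0.77, edgeR adjusted p = 0.969). Atp6v0d2, a proton pump subunit of lipid-laden macrophages and osteoclasts, had 31.4, 28.03 and 34.7 CPM in BAT, against 148, 129 and 61.3 CPM in RWAT, and the tetraspanin Cd9 51.9, 79.7 and 40.1 CPM in BAT, against 103, 92.97 and 85.6 CPM in RWAT. Both were lower in every BAT library than in any RWAT library, without passing the test (edgeR adjusted p = 0.999 and 0.999).

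**Figure D4:**
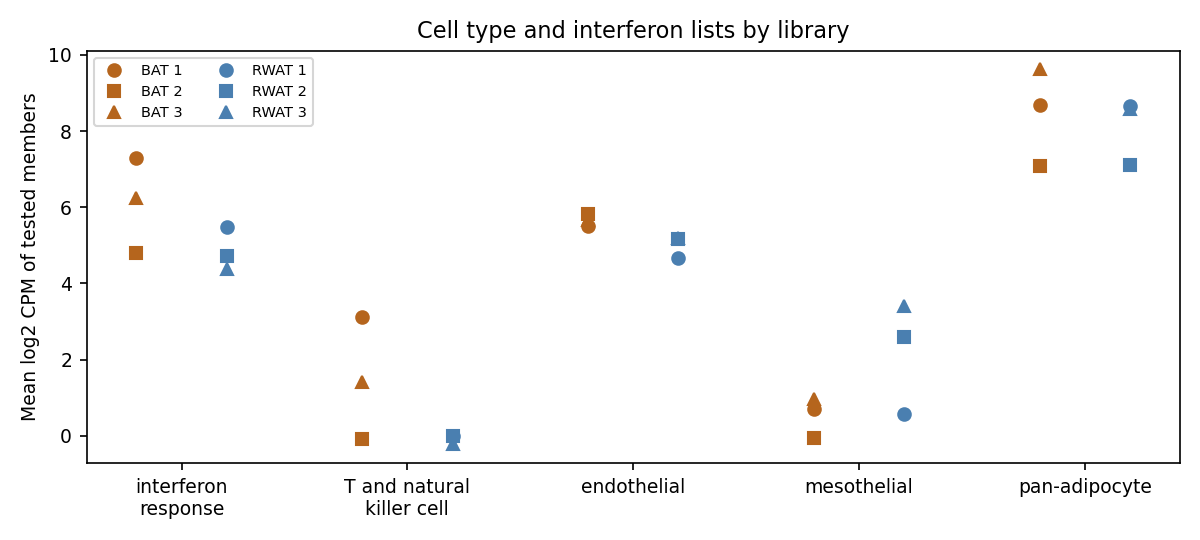
Mean log2 CPM of the tested members of 5 lists in each library, with BAT left of RWAT and a symbol shape per replicate number. BAT 1 and BAT 3 lie above RWAT for the interferon list (7.30 and 6.24), the endothelial list separates the depots, and the mesothelial list is high in RWAT 2 and RWAT 3 (2.59 and 3.41) but not in RWAT 1 (0.56).

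Mesothelial genes, markers of the epithelium that lines the abdominal cavity, had their highest mean log2 level in RWAT 3 and RWAT 2. Their mean log2 CPM was 0.71, -0.066 and 0.96 in BAT 1 to 3, against 0.56, 2.59 and 3.41 in RWAT 1 to 3, so RWAT 1 lay within the BAT range. Their sums had another order, with 285, 371 and 426 CPM in BAT 1 to 3, against 467, 302 and 684 CPM in RWAT 1 to 3. Of 21 tested, 19 had negative log2 fold changes, with a median of -2.59, -3.09 without RWAT 1 and -1.56 without RWAT 3. With the 6 BAT and RWAT libraries alone the median was -1.01, and -1.12 with replicate numbers blocked in those 6. These 2 fits had their own filter on low counts, with 17843 genes tested against 18942 in the full fit. Their medians cover only the members that passed it, which need not be the same 21. The shift from -2.59 thus cannot be read as a smaller difference in the same genes. In the full fit, 14 of the 21 were lower at an unadjusted edgeR p below 0.05, and edgeR called 0, limma-voom 0 and DESeq2 3. Those were mesothelin, Msln, and the uroplakins Upk3b and Upk1b. Msln had 0.107, 0.0507 and 0.219 CPM in BAT, against 0.338, 2.36 and 11.97 CPM in RWAT (log2 fold change -5.20 ± 1.298, edgeR adjusted p = 0.802). Upk3b had 0.266, 0.0507 and 0.219 CPM in BAT, against 0.193, 4.82 and 15.8 CPM in RWAT, and Upk1b 0.266, 0 and 0.164 CPM in BAT, against 0.0967, 5.41 and 5.002 CPM in RWAT (edgeR adjusted p = 0.802 and 0.802). In RWAT 1 these genes were at the level of a few counts, as in BAT.

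Endothelial genes had small positive fold changes. All 18 tested had positive log2 fold changes with a median of 0.70, which stayed between 0.54 and 0.83 when any 1 of the 6 libraries was left out. The values of 9 were higher in BAT without overlap, against 4.15% of all genes tested. At an unadjusted edgeR p below 0.05 there were 2, against 2.73% of all genes higher in BAT. In edgeR, DESeq2 or limma-voom 0 passed. Eng, a receptor of the transforming growth factor family, had 85.4, 110.05 and 110.1 CPM in BAT, against 51.8, 69.2 and 59.6 CPM in RWAT, and the vascular growth factor receptor Kdr 97.6, 92.97 and 73.6 CPM in BAT, against 37.5, 61.4 and 57.1 CPM in RWAT. Both were higher in every BAT library than in any RWAT library (edgeR adjusted p = 0.999 and 0.999). Ptprb, an endothelial phosphatase, had 106, 134 and 222 CPM in BAT, against 88.8, 96.7 and 84.9 CPM in RWAT without overlap, and the angiopoietin receptor Tek 44.001, 33.001 and 59.3 CPM in BAT, against 35.5, 23.9 and 27.4 CPM in RWAT with BAT 2 below RWAT 1 (edgeR adjusted p = 0.999 and 0.983). Of 17 stromal progenitor genes, 2 were higher at an unadjusted edgeR p below 0.05 and 0 passed in edgeR, DESeq2 or limma-voom. Ly6a, the Sca-1 antigen, which is also induced by interferon, had 449, 203 and 359.6 CPM in BAT, against 167, 87.2 and 157 CPM in RWAT without overlap (log2 fold change 1.299 ± 0.35, edgeR adjusted p = 0.802). Cspg4, a proteoglycan of pericytes, had 65.6, 87.2 and 42.7 CPM in BAT, against 44.6, 39.4 and 29.7 CPM in RWAT (edgeR adjusted p = 0.950).

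Adipocyte genes varied widely within both depots. The 21 pan-adipocyte genes summed to 16118, 8484 and 40869 CPM in BAT 1 to 3, against 22427, 9554 and 19923 CPM in RWAT 1 to 3, highest in BAT 3 and lowest in BAT 2 and RWAT 2. No member passed in edgeR, DESeq2 or limma-voom or reached an unadjusted edgeR p below 0.05, and the median log2 fold change was 0.62, or -0.098 without BAT 3. Adipoq, the hormone adiponectin, had 585, 173 and 2276 CPM in BAT, against 877, 231 and 893 CPM in RWAT (log2 fold change 0.60 ± 1.02, edgeR adjusted p = 0.999). Plin1, which coats the lipid droplet, had 490.1, 222 and 1076 CPM in BAT, against 550.1, 160.1 and 453 CPM in RWAT, and Lep, the hormone leptin of white fat, 141, 138 and 939 CPM in BAT, against 633, 192 and 672 CPM in RWAT. Leptin was highest in BAT 3, a library labelled brown, and lower in BAT 1 and BAT 2 than in any RWAT library (log2 fold change -0.30 ± 1.08, edgeR adjusted p = 0.999). The adipocyte factors Pparg and Cebpa had log2 fold changes of 0.67 ± 0.57 and 0.46 ± 0.38 (edgeR adjusted p = 0.999 and 0.999).

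The named markers that define the kidney, adrenal gland and exocrine pancreas were at or near 0, while some other members of these lists were expressed. In the kidney list, Umod and Miox had 0 counts in all 6 libraries and the proximal tubule transporter Slc34a1 had 0 CPM in BAT 1 to 3, against 0.193, 0 and 0 CPM in RWAT 1 to 3. Lrp2, an endocytic receptor of kidney and of other epithelia, had 0.373, 0.558 and 0.329 CPM in BAT, against 0.145, 3.32 and 3.79 CPM in RWAT, high in RWAT 2 and RWAT 3, the libraries with mesothelial transcripts (edgeR adjusted p = 0.987). The lists had 7 of 20, 4 of 12 and 1 of 11 genes tested, with medians of 0.55, 0.012 and -0.25, and 0 passed in edgeR, DESeq2 or limma-voom. Lrp2 was the 1 gene of these lists with an unadjusted edgeR p below 0.05. The kidney list summed to 215, 214 and 418 CPM in BAT 1 to 3, against 220, 200 and 130 CPM in RWAT 1 to 3. The 1 tested pancreas gene had a log2 CPM of 3.26, 3.69 and 4.16 in BAT, against 3.84, 3.65 and 4.40 in RWAT. Cyp11b1 of the adrenal cortex had 0, 0.152 and 0.0548 CPM in BAT, against 0.0967, 0.136 and 0 CPM in RWAT, and the pancreatic protease Prss2 0, 0.0507 and 0 CPM in BAT, against 0, 0.0455 and 0 CPM in RWAT, all within 4 counts of 0 in each library.

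The genes with the largest fold changes among those without overlap and with at least 10 CPM in the higher depot were also listed, up to 10 in each direction. None but Zic1 passed in edgeR. Among those higher in BAT, P2rx5, an ATP-gated channel of brown adipocytes, had 26.7, 3.65 and 3.51 CPM in BAT, against 1.64, 1.27 and 1.67 CPM in RWAT, and Plin5, which links lipid droplets to mitochondria, 81.7, 10.9 and 11.1 CPM in BAT, against 6.23, 2.86 and 7.73 CPM in RWAT. Clstn3, which has an adipocyte form that governs lipid droplets, had 45.8, 7.60 and 13.6 CPM in BAT, against 5.65, 2.64 and 6.22 CPM in RWAT. In these 3 genes BAT 1 was several times above BAT 2 and BAT 3, which themselves stood above RWAT (edgeR adjusted p = 0.802, 0.802 and 0.950). Nos2, the inducible nitric oxide synthase, was lowest in BAT 1 among the BAT libraries, with 10.1, 20.7 and 20.7 CPM in BAT, against 2.85, 3.41 and 6.06 CPM in RWAT (log2 fold change 2.07 ± 0.77, edgeR adjusted p = 0.969). The class I genes H2-Q6 and H2-Q7 had 103, 24.6 and 65.8 CPM and 142, 33.7 and 83.2 CPM in BAT, against 16.6, 22.1 and 15.8 CPM and 23.3, 28.2 and 33.4 CPM in RWAT, but their sequences are similar and their separate counts are uncertain. The pseudogenes Rps18-ps3, higher in BAT, and Rpsa-ps2, lower, share reads with ribosomal protein genes and are uncertain too.

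Apart from the 3 Hox genes, no gene lower in every BAT library passed in edgeR. Ddit4l, an inhibitor of mTORC1 signalling, had 1.60, 0.912 and 0.438 CPM in BAT, against 3.14, 10.2 and 18.04 CPM in RWAT (log2 fold change -3.39 ± 0.60, edgeR adjusted p = 0.420). It was called by DESeq2 and, with edgeR, without RWAT 1 (DESeq2 adjusted p = 5.21e-05 and edgeR adjusted p = 0.0442, with 5.21e-05 to 1.00 over 25 alternatives). RWAT 1 was its lowest RWAT library, so the edgeR call follows the choice of library. Nptx1, a neuronal pentraxin, had 0.266, 3.29 and 0.986 CPM in BAT, against 11.6, 14.5 and 10.5 CPM in RWAT, steady in RWAT and uneven in BAT. Cilp, a matrix protein of cartilage and stroma, had 13.5, 7.50 and 6.08 CPM in BAT, against 75.5, 30.4 and 74.5 CPM in RWAT, and Sfrp4, a secreted antagonist of Wnt signals, 5.33, 3.50 and 5.31 CPM in BAT, against 18.8, 6.87 and 35.3 CPM in RWAT (edgeR adjusted p = 0.950 and 0.999). Serpinb9b, an inhibitor of serine proteases, had 2.29, 3.65 and 3.40 CPM in BAT, against 10.1, 10.5 and 20.8 CPM in RWAT. Myom1, of the sarcomere, had 4.10, 4.46 and 4.93 CPM in BAT, against 10.3, 4.96 and 59.6 CPM in RWAT, with RWAT 3 far above the others.

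**Figure D5:**
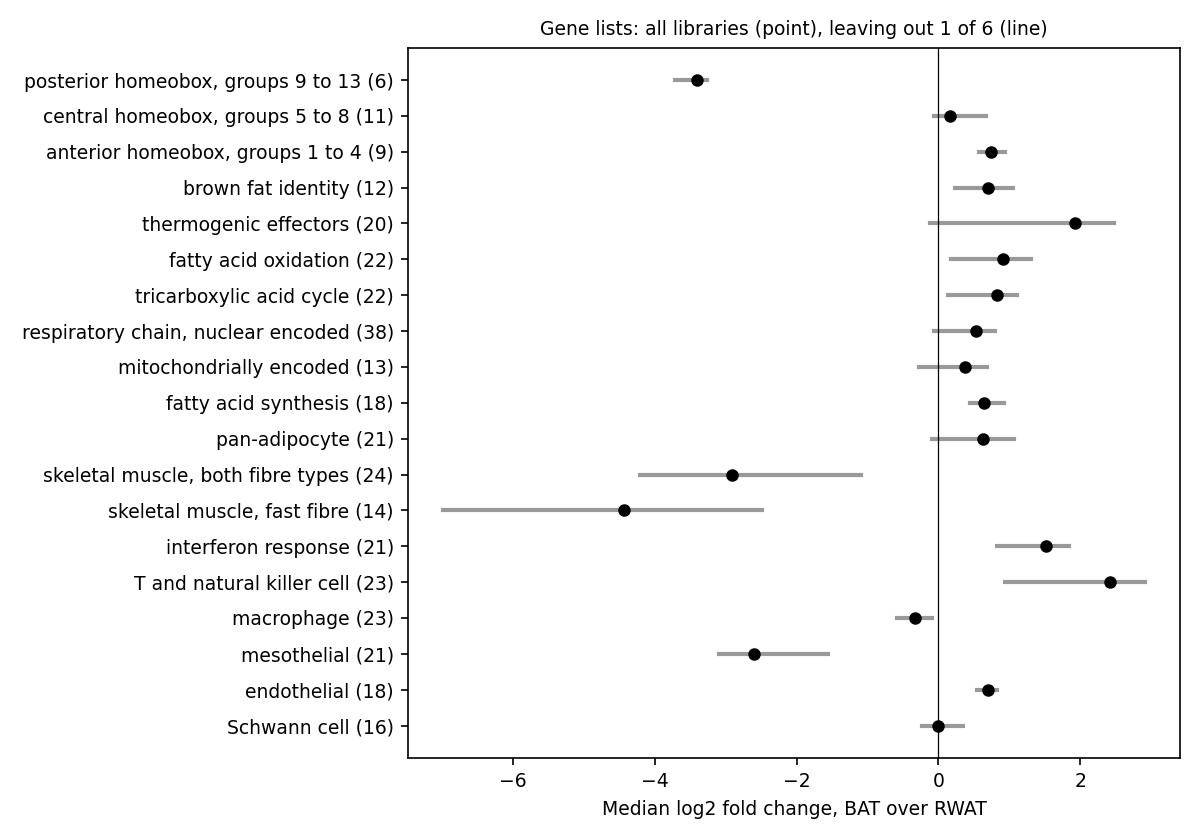
Median log2 fold change, BAT over RWAT, of the tested members of each list (point, number in parentheses) and the range of that median when each of the 6 BAT and RWAT libraries is left out in turn (line). The posterior homeobox median stays between -3.72 and -3.26 and the endothelial one between 0.54 and 0.83, while the thermogenic median spans -0.12 to 2.48 and the fast-fibre one -6.97 to -2.48. The 6 posterior homeobox genes include the 3 called ones, so their median restates those calls.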

How the data were processed

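The submitters' processing notes name Trimmomatic 0.36, RSEM 1.3.0, DESeq2 1.10.1 and the build GRCm38.p4, in no stated order. The aligner and the strand setting are not given in the sources used here. Per the file headers, each deposited table holds an expected count (an estimated read count) and a TPM per gene, both made by the authors with RSEM. The expected counts were rounded, and TPM served only for shares of myosins. Of 47729 genes per table, 47224 IDs matched GENCODE M21.

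Genes were filtered with filterByExpr (minimum count 10), scaled by TMM (factors 0.846 to 1.14) and tested two-sided with the edgeR 4.0.16 quasi-likelihood F test in R 4.3.3, in its bias-adjusted form, in 1 model over all 12 libraries, BH-adjusted at 0.05. The biological coefficient of variation was 0.385. The edgeR test was also run on simulated data with known changes, and the outcome is not given here. Totals were 12933516 to 20798169 expected counts in the 6 libraries. Reads without molecular identifiers are not independent molecules.

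Alternatives were RLE and upper-quartile factors, TMM without muscle and mitochondrially encoded genes, no filter, 1 CPM in 3 libraries, DESeq2 1.42.0, limma-voom (limma 3.58.1), 6 libraries only, the replicate number as a block, a muscle covariate (mean log2 CPM, prior count 2), a test against a fold change of 1 on the log2 scale and left-out libraries. The muscle covariate was computed from the genes of the skeletal muscle lists, so it takes out their shared difference by construction. The older quasi-likelihood form was added after seeing the data. Deviations from depot means of same-numbered BAT and RWAT libraries correlated at 0.182, 0.429 and 0.199 across genes, all over 0.1. Differently numbered libraries correlated at -0.3 to 0.0823, but deviations cancel within a depot, which pulls these values down. The numbers were thus taken as a possible pairing, which the labels do not state. The main test treated the libraries as unpaired, and the block was an alternative.

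Named genes are those called, up to 4 members of each list with the smallest p, a set of fixed marker genes, and up to 10 genes per direction with the largest fold change without overlap. The members and the lists were chosen with earlier results of these data known.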

Additional observations from a re-analysis of the deposited data

How the results depend on the processing

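The count of called genes, 4 (1 higher and 3 lower in BAT), was unchanged with RLE or upper-quartile factors, TMM without muscle and mitochondrially encoded genes, no filter, the 1 CPM filter and a log2 fold change of at least 1. It was 45 with DESeq2 (21 higher, 24 lower), 3 with the older quasi-likelihood form (0 higher), 3 with the replicate number as a block (0 higher) and 2 with the 6 libraries only (0 higher). It was 0 in both directions with the block in 6 libraries, the muscle covariate, limma-voom and without RWAT 1 and RWAT 3 (at an unadjusted p below 0.05, 1383, 952, 553 and 506). Leaving out 1 library gave 0 to 28 calls, 0 to 26 of them higher and 0 to 12 lower in BAT: 28 without BAT 2, 13 without RWAT 2, and 0 by edgeR without EWAT 1, EWAT 3, IWAT 2 or RWAT 3 (at an unadjusted p below 0.05, 1009, 949, 908 and 738). Among the 4 genes, the block over 12 libraries ended the call of Zic1 only, and in the 6 libraries it ended those of Hoxa9 and Hoxa10, the 2 called there without it. Log2 fold changes changed sign with the muscle covariate for Lep (0.26). The covariate is built from Acta1, Ckm, Myh1 and Myh2 among others, whose log2 fold changes also changed sign (0.43, 0.51, 1.44 and 2.99). Without RWAT 1 and RWAT 3 they did so for Acta1 (1.65), Cacna1s (0.12), Ckm (4.56), Lep (1.08), Myh1 (3.02), Myh2 (3.59), Myh4 (4.53) and Ryr1 (0.38); these are the libraries with most of the muscle reads. Myh2 had 0.60 with limma-voom, 0.88 with the replicate block and 1.13 with the block in 6 libraries. Over the left-out libraries, values on both sides of 0 were given by Adipoq (-0.81 to 1.10), Adrb3 (-0.19 to 2.00), Cpt1b (-1.11 to 4.91), Jchain (-0.37 to 4.18), Lep (-1.84 to 0.11), Myh1 (-5.32 to 0.58), Myh2 (-2.28 to 2.91), Plin1 (-0.12 to 1.01), S100b (-0.26 to 3.96) and mt-Atp6 (-0.053 to 1.00). The causes were not tested. With 3 libraries per depot and BAT 2, BAT 3 and RWAT 1 short of defining genes, small differences may be missed, and genes of a few counts are limited by depth.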

Other observations

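Gene groups not described above gave no calls. The 26 collagen and matrix genes had 0.34 as their median log2 fold change. Of them, 2 were higher in BAT without overlap, against 4.15% of all genes tested. In edgeR, DESeq2 or limma-voom 0 passed, and 0 reached an unadjusted edgeR p below 0.05. Their summed level was 28063, 59215 and 32693 CPM in BAT 1 to 3, against 29542, 36361 and 25102 CPM in RWAT 1 to 3, highest in BAT 2. Cell cycle genes summed to 858, 1873 and 734 CPM in BAT 1 to 3, against 1257, 1785 and 795 CPM in RWAT 1 to 3, so that BAT 2 and RWAT 2 were the highest of their depots. These are also the libraries with the lowest pan-adipocyte sums. Hormone and identity genes of white adipocytes had a median of 0.27, and -0.73 without BAT 3. The red blood cell list had a median of -0.49, with 8 of 9 values negative. The mural and smooth muscle list had a median of 0.18 over 17 genes, with Cspg4 (above) and Des at an unadjusted edgeR p below 0.05. Des, the intermediate filament of muscle cells of every kind, had 27.97, 27.7 and 7.67 CPM in BAT, against 33.3, 40.1 and 152 CPM in RWAT without overlap (edgeR adjusted p = 0.911), highest in RWAT 3, the library with the most skeletal muscle transcripts. In the list of creatine and calcium cycling, 10 genes had a median of -0.029. Itpr1, a calcium release channel of the endoplasmic reticulum, had 169, 94.8 and 137 CPM in BAT, against 83.6, 74.9 and 75.4 CPM in RWAT without overlap (edgeR adjusted p = 0.901). The lists of brown fat secreted signals (16 tested), lymphatic endothelial genes (6) and immediate early genes (19) had medians of 0.32, -0.23 and 0.026. In all lists of this paragraph 0 genes passed in edgeR, DESeq2 or limma-voom.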
